A study of Mus musculus with 2 samples.

Results

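The genes described here are 8 members of the insulin-like growth factor (IGF) system, namely the binding protein genes Igfbp2, Igfbp3, Igfbp4, Igfbp5, Igfbp6 and Igfbp7 and the receptor genes Igf1r and Igf2r. They were found as all non-control probes that both scanner tables name for one of the 8 genes, which gave 15 probes. The arrays named 27725 genes and unnamed transcripts in all. The list was chosen by gene family and by the measured ratios of Lgr6-high over Lgr5-high on these same arrays, in which Igfbp3 and Igfbp7 lay at opposite ends. Every ratio below is therefore a description without a test.

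IGF1 and IGF2 are secreted peptides that signal through the receptor tyrosine kinase encoded by Igf1r, while the receptor encoded by Igf2r takes up IGF2 for degradation and carries enzymes to lysosomes. Binding proteins hold IGFs outside the cell, prolong their life and either withhold them from the receptor or deliver them to it, and proteases release the bound peptide. In skin, dermal cells are a known source of IGF1, and keratinocytes respond through Igf1r. Igfbp7 encodes a distant relative of the binding proteins with low affinity for IGFs, found in vessel walls and stroma.

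Both cell populations came from mouse dorsal skin and were sorted for high green fluorescence. The Lgr5-high cells were from Lgr5-EGFP-ires-CreERT2 knock-in mice and the Lgr6-high cells from Lgr6-EGFP-ires-CreERT2 knock-in mice, so that the promoter of the tagged gene drove the reporter and every animal carried CreERT2. Each sort pooled 3 mice, and age, sex and treatment are not given in the sources used here. RNA of both populations was hybridised together on 2 two-colour arrays. On array 1 the Lgr6-high RNA carried Cy5 and the Lgr5-high RNA Cy3, and array 2 had the reverse labelling. Whether separate RNA pools went onto the arrays is not given in the sources used here, so they count as 1 replicate in both dye orientations, and each SD below is the spread of n = 2 arrays, which may be technical.

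To show what the array reads, 2 probes of members that lie in coding sequence are given 5′ to 3′ as the scanner files hold them, with positions on mouse build mm9. The Igfbp3 probe is 1 of 3 for the member with the largest ratio. Its 60 bases cover 1010 bases of the minus strand at chr11:7108469-7109478, and so cross at least 1 splice junction. Its capitals mark the codons of a cysteine-tryptophan-cysteine motif, which belongs to the carboxy-terminal domain that the classical binding proteins share and Igfbp7 lacks. The Igfbp2 probe lies on the plus strand at chr1:72898677-72898736, and its capitals mark the stop codon that ends the reading frame.
Igfbp3 probe A_51_P228472: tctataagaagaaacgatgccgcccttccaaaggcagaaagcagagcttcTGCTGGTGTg
Igfbp2 probe A_51_P423308: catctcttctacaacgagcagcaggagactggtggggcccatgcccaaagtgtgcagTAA
The frame set by the capitals held 19 and 20 codons in these probes and no stop codon before the end. The other 13 probes are given without their sequence.

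Most of the family was dim in both populations. Net signal below is the mean spot brightness minus the median local background, in scanner intensity units. It is not normalised between arrays, and within 1 dye the populations lie on different arrays. A difference in net signal can therefore also be one between arrays. Of 153 negative control spots on each array, 95% had a net Cy3 signal under 49.4 on both arrays, and a net Cy5 signal under 31.9 on array 1 and 33.5 on array 2. Of the 15 probes, 2 were well above background by the scanner's own mark in all 4 measurements (2 populations on 2 arrays), 2 in 3, 3 in 2, 6 in 1 and 2 in none. Only 5 probes, of Igfbp3, Igfbp7 and Igf2r, met the filter of the comparison, which asked for at least 1 population well above background on both arrays. For the other 5 genes, a ratio near 0 therefore shows only that neither population stood clear of background in both dyes, not that their levels were alike.

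**Figure D1:**
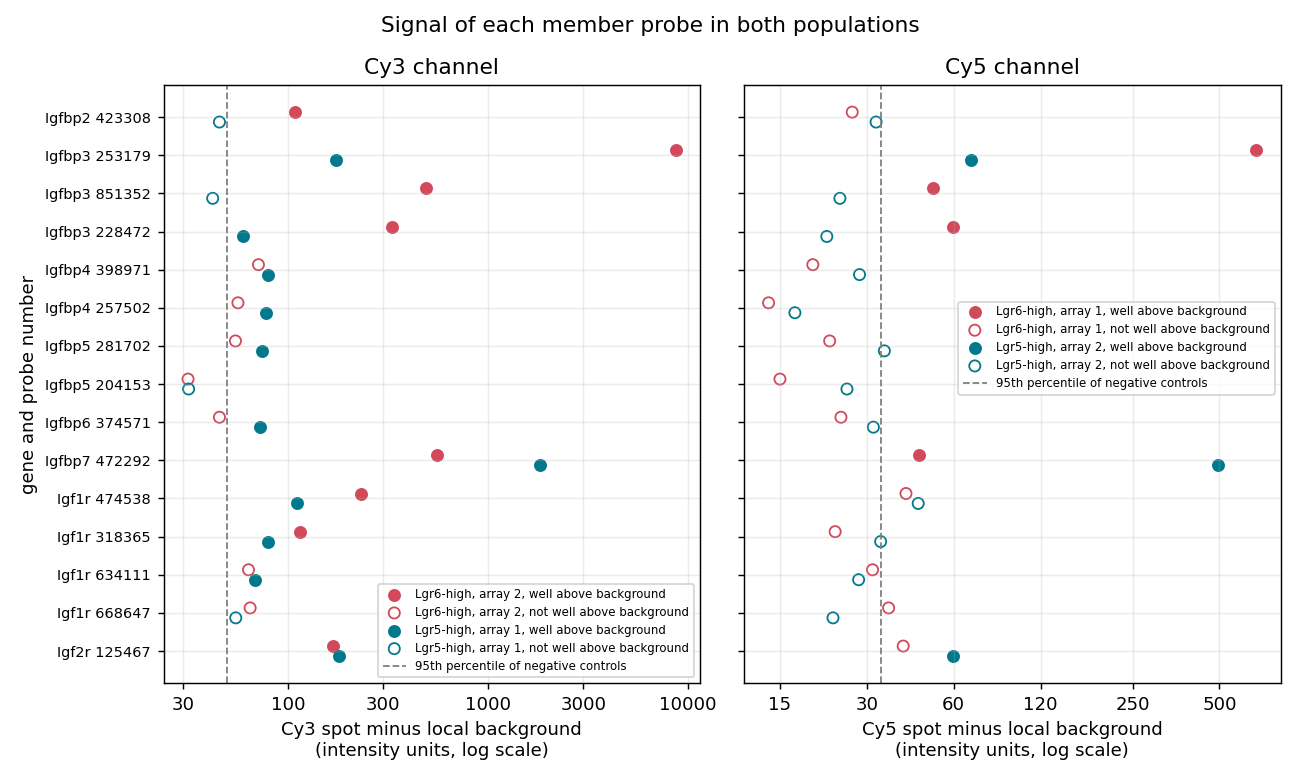
Net signal (spot minus local background, log scale) of each of the 15 probes in Cy3 (left) and Cy5 (right), with Lgr6-high cells in red and Lgr5-high cells in teal; filled points were well above background, and the dashed line is the 95th percentile of negative controls on the array where it is higher. Igfbp3 reaches 8690 in the Lgr6-high cells and Igfbp7 1830 in the Lgr5-high cells, while most other probes lie near the line.

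Igfbp3, the main carrier of IGFs in serum and a binding protein made by many epithelial and stromal cells, was far higher in the Lgr6-high cells. Its brightest probe (A_52_P253179, mm9 chromosome 11, 7106594 to 7106653) had net signals of 8690 with Cy3 and 670 with Cy5 in the Lgr6-high cells, against 174 with Cy3 and 69.1 with Cy5 in the Lgr5-high cells. Both Lgr6-high values exceeded both Lgr5-high values, also across dyes. The log2 ratio of Lgr6-high over Lgr5-high was 3.88 on array 1 and 3.82 on array 2, a mean of 3.85 ± 0.05 (SD, n = 2 arrays) or 14.4-fold. Of 6208 genes compared, 10 had a larger ratio.

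The other Igfbp3 probes pointed the same way with smaller ratios. The splice-crossing probe printed above had net signals of 330 with Cy3 and 59.5 with Cy5 in the Lgr6-high cells, against 59.6 and 21.8 in the Lgr5-high cells, the last of these not well above background. Its ratio was 0.97 ± 0.14, from 0.87 on array 1 and 1.06 on array 2. The remaining probe (A_52_P851352, chromosome 11, 7111815 to 7111874) matches a complementary DNA that its deposited description calls unclassifiable, so it may read a different transcript. It was well above background in the Lgr6-high cells on both arrays, at 493 and 50.8 with Cy3 and Cy5, and in the Lgr5-high cells on neither, at 42.1 and 24.2. Its ratio was 1.05 ± 0.42, or 2.07-fold toward the Lgr6-high cells, from 0.76 on array 1 and 1.34 on array 2. Replacing the Lgr5-high level by the lowest level of any probe well above background, where that is higher, left the fold at 2.07. No minimum fold is therefore given. In the scanner software's own ratios the probes lay nearer to each other. The brightest probe had a mean log2 ratio of 4.74 there and the splice-crossing probe 3.20, and the remaining probe had 4.05 on array 1 and 3.95 on array 2. With these 2 settings the size for Igfbp3 differed between probes by more than between arrays. With median centring in place of loess, the brightest probe had 2.05 on array 1 and 5.99 on array 2, and with the background model fitted on all spots it had 3.88 and 1.37.

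Igfbp7 lay at the other end. Its 1 probe (A_51_P472292, chromosome 5, 77778355 to 77778414) had net signals of 1830 with Cy3 and 496 with Cy5 in the Lgr5-high cells, against 554 and 45.5 in the Lgr6-high cells. Within each dye the Lgr5-high cells were brighter, and all 4 signals were well above background. The log2 ratio was -2.38 on array 1 and -2.16 on array 2, a mean of -2.27 ± 0.15, or 4.82-fold toward the Lgr5-high cells. Of 6208 genes, 17 had a lower ratio. With median centring in place of loess the mean was -2.21, but array 1 gave -4.24 and array 2 -0.18, so that Igfbp7 missed the rule for a call there.

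Igf2r, the third gene that met the filter, had a ratio nearer to 0. Its probe (A_51_P125467, chromosome 17, given in the file as 12875253 to 12875263, which covers fewer bases than the probe holds) had net signals of 181 with Cy3 and 59.9 with Cy5 in the Lgr5-high cells, and 169 and 40.1 in the Lgr6-high cells. The Lgr6-high signal was well above background with Cy3 only, so the ratio does not show that the levels were alike. The ratio was -0.22 on array 1 and -0.39 on array 2, a mean of -0.31 ± 0.12, and 29.6% of genes compared lay lower. The scanner software's ratios gave -1.44 and -1.03, a mean of -1.24, which would pass the rule for a call. Median centring gave -1.17 on array 1 and 0.68 on array 2.

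**Figure D2:**
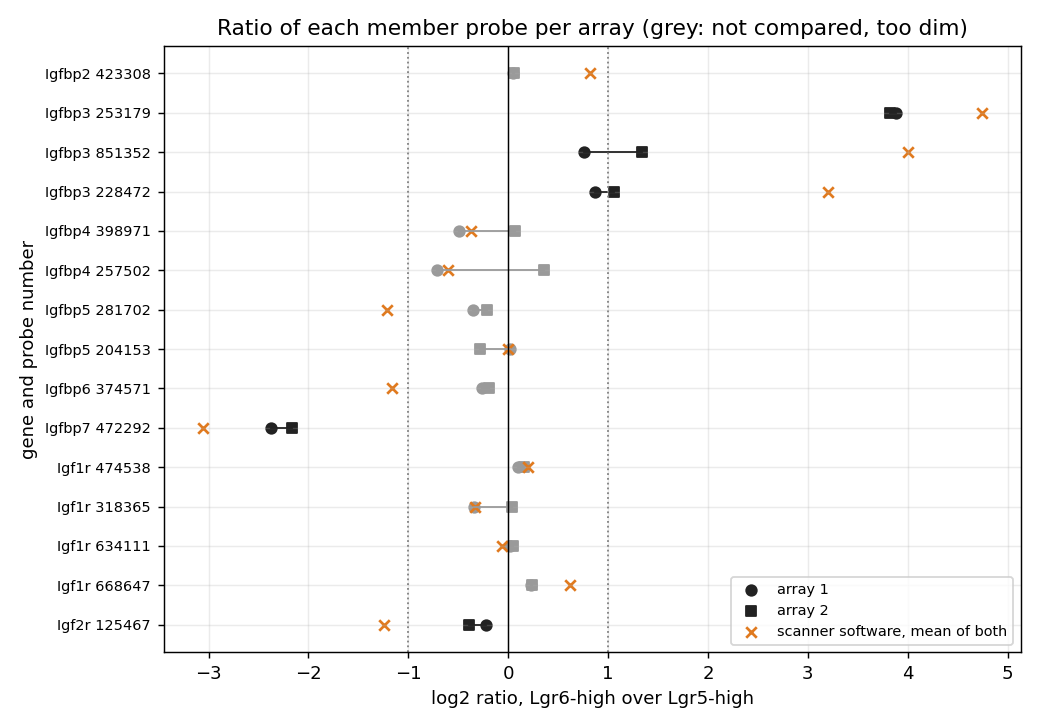
Log2 ratio of Lgr6-high over Lgr5-high for each probe on array 1 (circles) and array 2 (squares), in black for the 5 probes compared and grey for the 10 too dim to compare, with the mean of the scanner software's ratios as crosses; dotted lines mark 2-fold. Only the brightest Igfbp3 probe and the Igfbp7 probe lie beyond 2-fold on both arrays in black.

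A gene was called if its mean log2 ratio was at least 1 in size (2-fold) and both arrays gave a ratio of that sign of 0.5 or more in size. By this rule 451 of 6208 genes (7.26%) were called higher in the Lgr6-high cells, with Igfbp3 as 1 member among them. A further 295 genes (4.75%) were called higher in the Lgr5-high cells, with Igfbp7 as 1 member among them. Both members were chosen for these ratios, so nothing is read from their share. The split of all calls was 959 and 959 with the scanner software's ratios and 124 and 151 with the background model fitted on all spots. The median over all genes compared was -0.04, and the middle 90% of genes lay between -0.99 and 1.21.

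**Figure D3:**
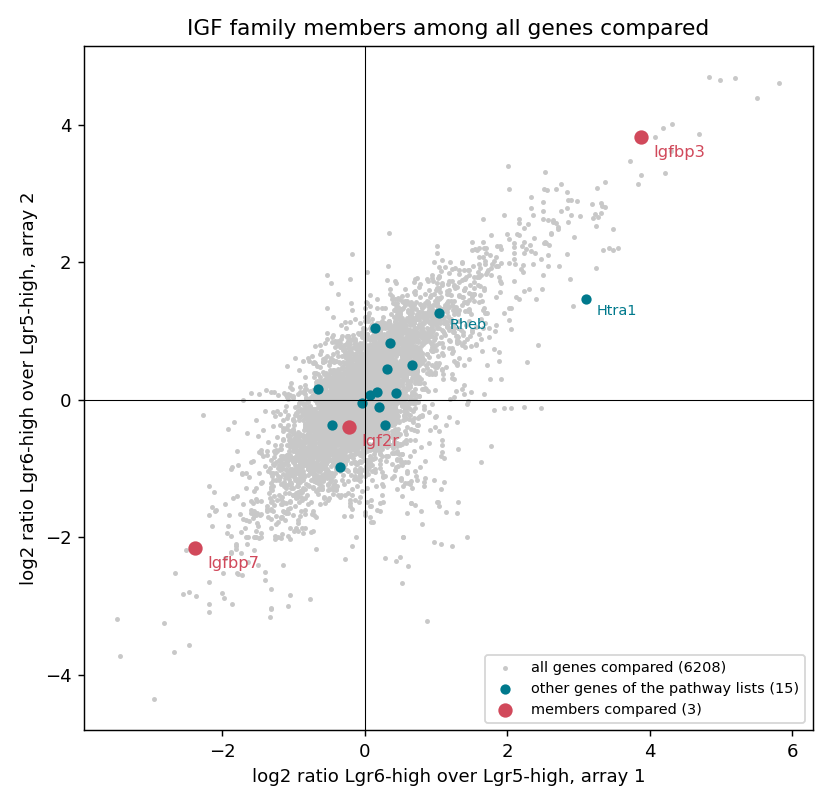
Log2 ratio on array 1 against array 2 for all 6208 genes compared (grey), the 15 genes of the IGF pathway lists that were compared (teal) and the 3 members compared (red). Igfbp3 lies at 3.88 and 3.82 near the upper right end, Igfbp7 at -2.38 and -2.16 near the lower left end, and Igf2r within the central cloud.

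Igf1r, the signalling receptor, was measured by 4 probes, none of which met the filter. Its brightest probe (A_51_P474538, chromosome 7, 75376998 to 75377057) was well above background in Cy3 for both populations, at 233 in the Lgr6-high and 111 in the Lgr5-high cells, and in Cy5 for neither, at 41.0 and 45.2. Its ratio was 0.10 on array 1 and 0.16 on array 2, a mean of 0.13 ± 0.04. The probe A_51_P318365 (75371556 to 75371615) was also above background in Cy3 for both, at 115 and 79.9, with a ratio of -0.15 ± 0.27. The probes A_52_P634111 (75372500 to 75372559) and A_52_P668647 (75332515 to 75332574) had ratios of 0.03 ± 0.02 and 0.23 ± 0.01 and were well above background in 1 and 0 of 4 measurements. Igf1r was thus above background in both populations with Cy3 and in neither with Cy5, and its probes disagreed in sign.

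Igfbp2, a binding protein with a preference for IGF2, was marked well above background in the Lgr6-high cells alone and only with Cy3, which is array 2. The net Cy3 signal of the probe printed above was 109 in the Lgr6-high cells and 45.5 in the Lgr5-high cells, the latter under the 95th percentile of negative controls. In Cy5 the signals were 26.7 and 32.3, neither well above background. Its ratio was 0.05 on array 1 and 0.06 on array 2, and the scanner software gave 0.00 and 1.64.

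Igfbp4, Igfbp5 and Igfbp6 were marked well above background only in the Lgr5-high cells, and only in Cy3, which is array 1. Within 1 dye the population is exchanged together with the array, so this difference of marks sets no direction. Igfbp4 encodes a binding protein mostly described as inhibitory. Its brighter probe (A_51_P398971, chromosome 11, 98909591 to 98909650) had net Cy3 signals of 79.5 in the Lgr5-high and 71.3 in the Lgr6-high cells, the first well above background. The other probe (A_52_P257502, 98913334 to 98913393) gave 77.5 and 56.3, marked in the same way. Their ratios of -0.21 ± 0.40 and -0.18 ± 0.76 differed in sign between arrays, so no direction is given for Igfbp4.

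Igfbp5, a binding protein that also adheres to extracellular matrix, had 1 probe (A_52_P281702, chromosome 1, 72904829 to 72904888) at 74.1 in Cy3 in the Lgr5-high cells, well above background, and 54.7 in the Lgr6-high cells. Its ratio was -0.35 on array 1 and -0.21 on array 2, a mean of -0.28 ± 0.10. The second Igfbp5 probe (A_51_P204153, 72907366 to 72907425) was above background in no measurement, at -0.13 ± 0.21. Igfbp6, whose protein prefers IGF2, had 1 probe (A_51_P374571, chromosome 15, 101979763 to 101979823) at 72.6 in Cy3 in the Lgr5-high cells, well above background, and 45.5 in the Lgr6-high cells, with a ratio of -0.23 ± 0.05. With the scanner software's ratios, Igfbp5 had -1.74 and -0.68 and Igfbp6 -1.02 and -1.30 on arrays 1 and 2. Among the 10 probes that were not compared, the largest mean ratio was 0.28 in size.

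Since Cy3 gave more detections than Cy5, the same dye was also compared between arrays, which was decided after the data were seen. In Cy3 the log2 ratio was 4.79 for the brightest Igfbp3 probe and -2.42 for Igfbp7, and in Cy5 it was 2.99 and -2.42. The Cy3 values of the other members were 0.71 for Igfbp2, 0.37 for the brightest Igf1r probe, -0.65 for Igf2r, -0.60 for Igfbp6, -0.48 for the brighter Igfbp5 probe and -0.37 for the brighter Igfbp4 probe. The Cy5 values of the same probes were nearer to 0, at -0.10, 0.01, -0.21, -0.15, -0.25 and -0.20 in that order, and for Igfbp2 the sign differed from that in Cy3. In this comparison the population is exchanged together with the array.

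**Figure D4:**
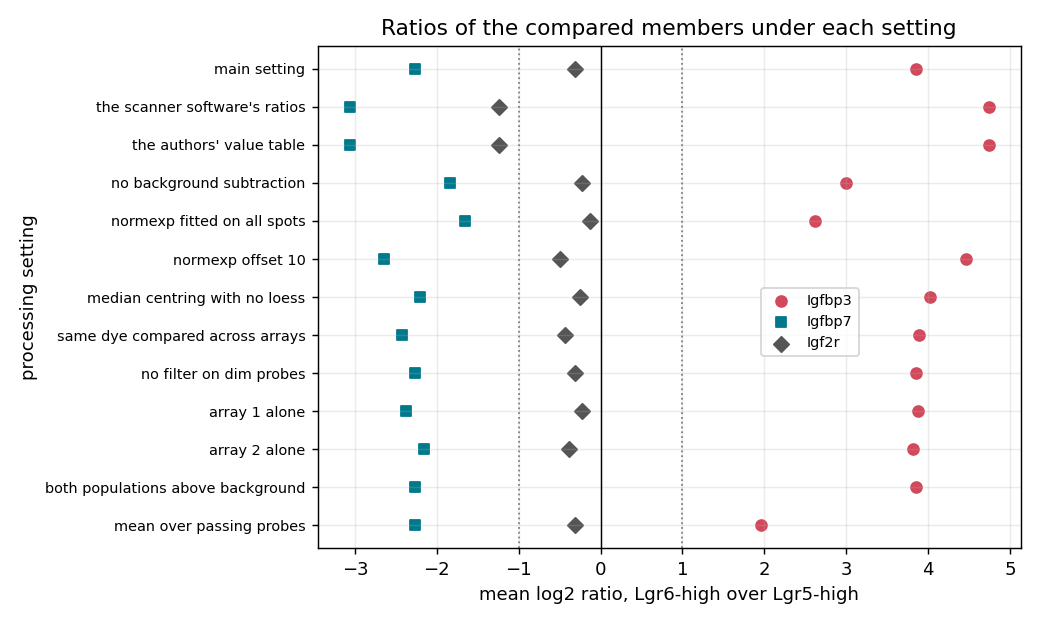
Mean log2 ratio of Lgr6-high over Lgr5-high of the 3 members compared, under the main setting and each alternative; dotted lines mark 2-fold. Igfbp3 lies between 1.96 and 4.74 and Igfbp7 between -3.06 and -1.66, while Igf2r passes 2-fold only with the scanner software's ratios and the authors' value table made from them.

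Some of these genes are neighbours. The Igfbp2 and Igfbp5 probes start 6152 bases apart on chromosome 1, on opposite strands, and in Cy3 the scanner marked the first as well above background in the Lgr6-high cells alone and the second in the Lgr5-high cells alone. The unmarked Igfbp5 signal of 54.7 was nonetheless above the 95th percentile of negative controls. The Igfbp3 gene has Igfbp1 beside it, whose probe (chromosome 11, 7102442 to 7102501) starts 4152 bases from the nearest Igfbp3 probe. Igfbp1, a binding protein best known from liver, was well above background in 1 of 4 measurements, at 92.3 with Cy3 in the Lgr6-high cells, against 42.3 in the Lgr5-high cells, and its ratio was 0.09 ± 0.13.

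The ligands were not seen in either population. All 4 Igf1 probes, both Igf2 probes, the Ins1 probe and both Ins2 probes were above background in no measurement. The highest net Cy3 signal of any Igf1 probe was 47.1, in the Lgr5-high cells, and of any Igf2 probe 44.6, in the Lgr6-high cells, both under the 95th percentile of negative controls. The insulin receptor gene Insr (0.13 ± 0.00 for its probe of highest mean log2 intensity) and the binding protein genes Igfals (-0.07 ± 0.06) and Igfbpl1 (0.02 ± 0.14) were marked well above background in no measurement either. The insulin receptor-related gene Insrr (0.13 ± 0.28) was marked once, at 56.4 in Cy3 in the Lgr5-high cells, although its Lgr6-high signal in Cy3 was 64.5 and carried no mark.

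Of 54 other genes on 7 lists of the IGF pathway, 53 had a probe under their name and 15 met the filter. Of these, 2 were called higher in the Lgr6-high cells and 0 in the Lgr5-high cells, beside 7.26% and 4.75% of all genes. Their median log2 ratio was 0.14, against -0.04 over all genes compared. The 2 were Htra1, a secreted serine protease that cleaves binding proteins (2.29 ± 1.16), and Rheb, the small GTPase that activates mTOR (1.15 ± 0.16). Htra1 was bright, with net Cy3 signals of 19000 in the Lgr6-high and 3280 in the Lgr5-high cells and Cy5 signals of 4210 and 897, but its ratio was 3.11 on array 1 and 1.47 on array 2. It was the only one of 7 protease and protease inhibitor genes bright enough to compare. Pappa, the protease that acts on Igfbp4 and Igfbp5, was above background once, at 107 in Cy3 in the Lgr5-high cells, with a ratio of -0.64 ± 0.07. Neither call held under every alternative. With the background model fitted on all spots, Htra1 had 3.11 on array 1 and 0.48 on array 2 and was not called. Rheb was not called there (mean 0.76), without background subtraction (mean 0.83), or with median centring, where it had -1.18 on array 1 and 3.56 on array 2.

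Downstream of the receptors, 10 of 26 adaptor and phosphoinositide pathway genes met the filter, with ratios from -0.41 to 1.15 and a median of 0.06. The kinase genes Akt1 (-0.41 ± 0.06) and Akt2 (-0.04 ± 0.02), the adaptor gene Grb2 (0.58 ± 0.12), the receptor substrate gene Irs1 (-0.26 ± 0.58) and the transcription factor gene Foxo1 (0.14 ± 0.05) were not called. Of 9 genes listed because their proteins share the binding protein domain, 4 met the filter and 0 were called in either direction. The 4 were the matricellular genes Ccn1 (0.60 ± 0.34) and Ccn2 (-0.66 ± 0.45), with Crim1 (0.60 ± 0.64) and Kazald1 (0.38 ± 0.09). Htra1, called higher in the Lgr6-high cells, was counted with the proteases and not on this list. The 0 therefore holds for the listed genes only. None of the 3 genes for RNA-binding proteins of Igf2 messenger RNA met the filter.

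The genes with the most similar pair of array ratios were found by Euclidean distance over the 2 arrays. For Igfbp3 they included Tcim (mean 3.94, distance 0.19) and Oas1f (3.60, distance 0.38). For Igfbp7 they were the aminopeptidase gene Lap3 (-2.35, distance 0.13), Gnb1l (-1.99, distance 0.40) and Lhx2, a homeobox gene of follicle stem cells (-2.13, distance 0.44). With 2 arrays these distances describe size alone.

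Marker lists of cell types, chosen with earlier results of these data known, were described in the same way. Over all genes compared, 7.26% were called higher in the Lgr6-high and 4.75% in the Lgr5-high cells. Of 4 leukocyte and 4 Schwann markers, 0 met the filter. Summed net signals cover each whole list and are not normalised between arrays. Of 10 dermal fibroblast markers 7 met the filter and 5 were called higher in the Lgr5-high cells, in the direction of Igfbp7. The summed net signal of the fibroblast list was 6420 in Cy3 and 1420 in Cy5 in the Lgr5-high cells, against 1360 and 301 in the Lgr6-high cells. Col3a1 and Dcn were well above background only in the Lgr5-high cells, and Pdgfra in no measurement. Of 10 endothelial and mural markers 3 met the filter and were called in the same direction, with summed signals of 4410 in Cy3 and 1270 in Cy5 in the Lgr5-high cells, against 748 and 310 in the Lgr6-high cells. Most of the Lgr5-high sums came from Tagln, at 3060 in Cy3 and 796 in Cy5. Of 3 melanocyte markers, the pigment enzyme gene Dct met the filter and was called in that direction too (-1.58 ± 0.15). It was marked in the Lgr5-high cells alone, while Tyrp1 and Mlana were above background in no measurement. The defining endothelial genes Pecam1, Cdh5 and Kdr were above background in no measurement. The same held for Emcn and the mural genes Myh11, Rgs5 and Pdgfrb. In these sorted pools, fewer cells of a type and less RNA per cell cannot be told apart, and the part of these cell types in the Igfbp7 ratio was not tested.

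In the direction of Igfbp3, 4 of 5 suprabasal markers met the filter, and all 4 were called higher in the Lgr6-high cells. Over all genes compared, 7.26% were called in that direction. The suprabasal list summed to 31300 in Cy3 and 4790 in Cy5 in the Lgr6-high cells, against 2340 and 516. Krt10 alone gave 24300 of the Lgr6-high sum in Cy3. Of 7 upper follicle markers 6 met the filter and 5 were called higher in the Lgr6-high cells, with summed signals of 52100 and 5890 against 3540 and 970. Most of the Lgr6-high sum in Cy3 came from Plet1 (25700) and Cst6 (15800). Of 8 bulge and hair germ markers 7 met the filter and 5 were called higher in the Lgr5-high cells. In Cy3 the summed signal of that list did not follow the calls, at 113000 in the Lgr6-high cells against 41400. In Cy5 the sums were close, at 13100 in the Lgr6-high cells against 13800. Such sums are not normalised between arrays, and within 1 dye the populations lie on different arrays. Most of the summed signal came from the keratin gene Krt15, which was not called and had ratios of 1.95 on array 1 and -0.12 on array 2. The part of these populations in the Igfbp3 ratio was not tested. All 6 keratinocyte markers were well above background in both populations on both arrays. Their mean ratios were all above 0, with a median of 1.08. The keratin genes Krt5 (1.82 on array 1 and -0.15 on array 2) and Krt14 (2.24 and -0.10) differed in sign between arrays and were not called. The integrin genes Itga6 (1.58 ± 0.36) and Itgb4 (1.19 and 1.01 on arrays 1 and 2) and the cadherin gene Cdh1 (1.84 ± 0.48) were called higher in the Lgr6-high cells. Lgr5 itself was higher in the Lgr5-high cells (-1.83 ± 0.12), while the Lgr6 probe was too dim to compare (0.05 ± 0.14). The Lgr6 probe was marked well above background once, at 105 with Cy3 in the Lgr6-high cells, against 59.0 in the Lgr5-high cells, and with Cy5 in neither.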

How the data were processed

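Per the labels' protocols, 150 ng of total RNA was labelled by linear amplification. For each array the authors deposited a scanner table of intensity values on a linear scale, as mean spot signal and median local background per channel, and with the software's log10 ratio of Cy5 over Cy3, all made with Agilent Feature Extraction (10.5.1.1 per the file headers, 9.5.3 per the submitters' processing notes). Probe positions are on mm9 per the file headers. The authors' value table holds the same log10 ratios, with the sign of array 2 turned, so that both columns give Lgr6-high over Lgr5-high. From the intensities, background was corrected with normexp (offset 50, fitted on spots without an outlier mark), and log2 ratios were normalised by loess within arrays, with controls at weight 0, in limma 3.58.1 (R 4.3.3). Control and marked spots (139 and 204 probe spots) were left out, spots of a probe were averaged, and no probe spot was saturated. Before turning, the scanner's ratios of the 2 arrays correlated at -0.447 over probe spots.

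Probes were named through the accessions of a RefSeq gene table (GRCm38.p6, no coordinate used), then by symbol or synonym, and 34778 of 41174 probes had a name. A gene was represented by its passing probe of highest mean log2 intensity. The pair of arrays is 1 replicate, so no test of the populations was run, and the number of arrays limits the precision. The call procedure was tested on simulated data. All 8 members are named by every probe. From the pathway lists, the genes named are the called ones, those of the ligand, binding protein and receptor lists, and for Igfbp3 and Igfbp7 the 3 genes nearest in their array ratios, of which 1 is not reported here. Others were named after their values were seen. Members and lists were chosen with earlier results of these data known. The alternatives were the scanner software's ratios, the authors' value table, other background and normalisation choices, other probe filters, the mean over probes, 1 array at a time, and the same dye across arrays.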

Additional observations from a re-analysis of the deposited data

How the results depend on the processing

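In the mean, Igfbp3 stayed over 2-fold toward the Lgr6-high cells and Igfbp7 over 2-fold toward the Lgr5-high cells under all 12 alternatives. The mean of Igf2r kept its negative sign under the 11 that gave it a value. With the scanner software's ratios or the authors' value table, Igfbp3, Igfbp7 and Igf2r had 4.74, -3.06 and -1.24, the genes called numbered 959 in each direction, and 2 members were called higher in the Lgr5-high cells. Without background subtraction Igfbp3 and Igfbp7 had 3.00 and -1.84, with 212 genes called higher in the Lgr6-high cells, 1 of them in the pathway lists. With normexp fitted on all spots the 3 genes had 2.62, -1.66 and -0.13, with 124 and 151 genes called and 0 of the pathway lists. An offset of 10 gave 4.47, -2.64 and -0.49, with 725 and 481 genes called. Median centring gave Igfbp3 4.02 (2.05 on array 1 and 5.99 on array 2), 134 and 57 genes called, 1 of the pathway lists, and 0 members called higher in the Lgr5-high cells. Averaging its 3 probes gave Igfbp3 1.96, and the same dye across arrays, added after seeing the data, gave Igf2r -0.43. From array 1 and array 2 alone, Igfbp3 had 3.88 and 3.82, Igfbp7 -2.38 and -2.16, and Igf2r -0.22 and -0.39. The genes called numbered 434 and 314 from array 1 alone and 611 and 471 from array 2 alone. Among members too dim to compare, each by its brightest probe, Igf1r and Igfbp2 stayed above 0 and Igfbp5 and Igfbp6 below 0 in 10 of 10 alternatives. Igfbp4 was below 0 in 9 of 10. The alternatives are not separate checks, so these counts set no direction. The authors' value table repeats the scanner software's ratios, dropping the filter returns the main value, and each array alone is part of the main mean. For Igf1r, the probe A_51_P318365 had a main ratio of -0.15. The cause of the shifts between alternatives was not tested. Low signal over background limits every ratio of these 5 genes.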
